A study of Hordeum vulgare with 18 samples.

Results

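The genes described here are 100 barley genes whose transcript level in the flag leaf changed less from 7 to 14 days post anthesis (d) than it dropped from 14 to 21 d, in both of the lines studied; they are called the late-fall genes. They were chosen from the 7152 genes, of 13626 in the deposited table, that reached a mean normalized count of 20 in at least 1 group. A normalized count is the number of sequenced tags of a gene divided by the authors' size factor for the library. On the scale of log2(group mean + 5), each gene was scored by the smaller of its drops from 14 to 21 d in the 2 lines minus the larger of its absolute changes from 7 to 14 d, and the 100 highest scores were taken. A positive score was found for 453 of the 7152 genes (6.33%), of which the 100 are a part. It asks more than this pattern within each line, since the smaller drop must exceed the larger early change even across lines. The changes with age given below therefore chose the genes and are descriptions, and calls made on them say nothing independent of that choice.

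Flag leaves of Hordeum vulgare were compared between Karl, a barley cultivar, and 10_11, which is near-isogenic to it and was bred for more protein in the grain. Plants of both lines were grown in a glasshouse with fertilizer and nitrate supplied up to anthesis, shoots were tagged on the day of anthesis, and 3 samples of 10 or more pooled flag leaves were taken per line at 7, 14 and 21 d. No other treatment was applied, so the groups differ in line and leaf age. RNA was measured by MARS-seq, which counts tags near the 3′ ends of transcripts, and the labels call the samples of a group independent without saying whether they shared pots, so the tests measure the spread between these pooled samples.

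The flag leaf is the uppermost leaf of a cereal shoot and a main source of sugar for the filling grain. During its senescence chloroplasts are dismantled, chlorophyll is broken down and the nitrogen released from leaf protein is moved to the grain. Photosynthesis and the export of nutrients overlap in time in this leaf. The identifiers in the table are not paired with gene names, and 0 were found in the reference table of barley genes. Hence no role is given for any gene, leaf markers could not be checked and no sequence is shown.

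The 6 libraries of 7 d held 353982 to 947762 counts, those of 14 d 1381441 to 3231258 and those of 21 d 1058777 to 2616825, and the 7 d libraries carry another style of replicate number in the labels. The change from 7 to 14 d thus crosses a difference in depth and labelling. In 10_11 the change from 14 to 21 d crosses a difference in depth too, since the 14 d libraries used held 1864058 and 3231258 counts and those of 21 d 1058777 to 1384895. With 78 genes picked for a line difference at 7 d and 21 d, each library was placed on a scale from 0, the Karl mean, to 1, the 10_11 mean. Over all days the Karl libraries lay at -0.0604 to 0.0845, and all but 1 of the 10_11 libraries at 0.963 to 1.05. The library labelled 10_11 14 d replicate C was at 0.0712, the other 14 d libraries of 10_11 at 0.998 and 1, and the 14 d libraries of Karl at -0.0604 to 0.0335. It was left out of the choice of genes and of the values and tests below unless stated, so 10_11 at 14 d has 2 libraries.

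Across the late-fall genes the median change from 14 to 21 d was -0.88 in Karl and -1.16 in 10_11 on the log2(mean + 5) scale, against 0.02 and 0.08 over all 7152 genes that reached the level minimum. From 7 to 14 d their median change was -0.10 in Karl and -0.14 in 10_11. These small values moved with single libraries, in Karl to -0.05 without 7 d replicate 2 and to -0.16 without 7 d replicate 3 or 14 d replicate A. In 10_11 they moved to -0.07 without 14 d replicate B and to -0.21 without 14 d replicate A, and on CPM scaled by TMM they were -0.06 in Karl and -0.08 in 10_11. The later change was at least 2-fold on that scale, a log2 value of -1 or lower, for 42 of the 100 genes in Karl, for 63 in 10_11 and for 39 in both. In the whole set of 7152 genes, 167 (2.34%) had such a change in Karl, 503 (7.03%) in 10_11 and 93 (1.3%) in both lines. The choice put no limit on the size of the drop, and scores ran from 2.50 down to 0.32 with a median of 0.47. A score of 1 or more was reached by 9 genes and 58 lay below 0.5, so most of the set lies close to its lower edge.

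**Figure D1:**
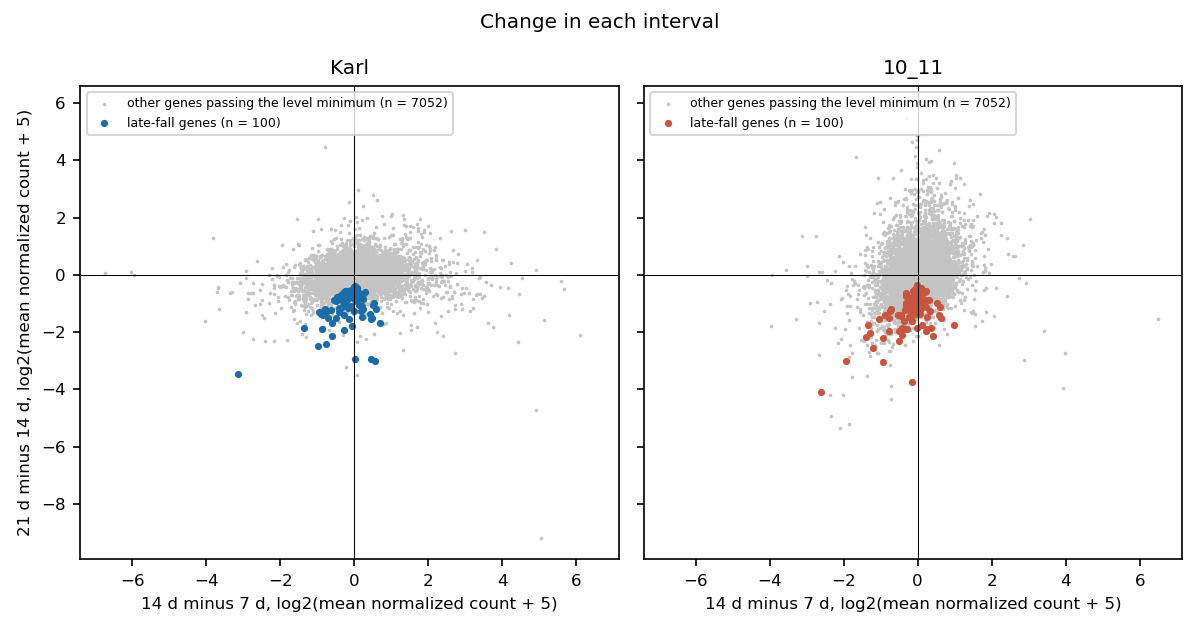
Change of each gene from 7 to 14 d (horizontal axis) and from 14 to 21 d (vertical axis), as differences of log2(mean normalized count + 5), in Karl and in 10_11; grey points are the other genes that reached the level minimum and coloured points are the 100 late-fall genes. The coloured points lie below 0 on the vertical axis in both panels, with medians of -0.88 in Karl and -1.16 in 10_11, and HORVU2Hr1G119090 lies far to the left in both.

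The mean log2 level of the set was similar in every library of 7 d and 14 d and lower in every library of 21 d. The mean of log2(normalized count + 5) over the 100 genes in Karl was 6.37 ± 0.15 at day 7, 6.22 ± 0.13 at day 14 and 5.16 ± 0.19 at day 21 (SD, n = 3). In 10_11 it was 6.37 ± 0.02 at 7 d (SD, n = 3), 6.20 ± 0.11 at 14 d (SD, n = 2) and 4.87 ± 0.09 at 21 d (SD, n = 3). Within Karl at 21 d, replicate B had the highest mean, 5.38, against 5.01 in replicate A and 5.08 in replicate C, and it was the highest of the 3 for 62 of the 100 genes and for 39.6% of the 7152. The 21 d libraries of 10_11 lay at 4.77 to 4.93, below all 3 of Karl. Over all 7152 genes the library means ran only from 5.73 to 5.95. In bulk leaf samples, fewer cells that hold a transcript and less of it per cell cannot be told apart.

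**Figure D2:**
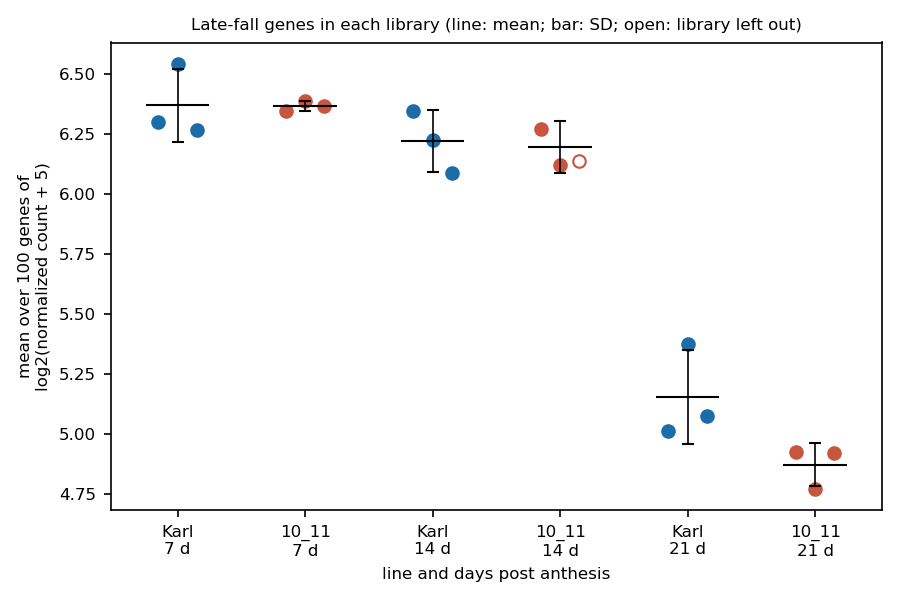
Mean over the 100 late-fall genes of log2(normalized count + 5) in each library (points), by line and days post anthesis, with the group mean (line) and SD (bar); the open point is replicate C as labelled for 10_11 at 14 d, counted in neither. The 7 d and 14 d libraries lie between 6.09 and 6.54 and the 21 d libraries between 4.77 and 5.38.

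Gene by gene, all 21 d libraries lay below all 14 d libraries of the same line for 81 of the 100 genes in Karl (11.2% of the 7152 genes) and for 90 in 10_11 (22.4%), and for 75 this held in both lines (6.05%). All 21 d libraries also lay below every 7 d library, besides those of 14 d, for 56 genes in Karl (6.42% of the 7152) and 74 in 10_11 (14.8%). In the fit across all 10382 genes tested (edgeR, Benjamini-Hochberg adjusted p under 0.05), 17 of the 100 were called lower at 21 d than at 14 d in Karl, where 0.578% of all genes were lower and 0.51% higher. In 10_11 the call was made for 66, where 7.95% of all genes were lower and 9.48% higher. Of the 100, 16 genes were called in both lines, HORVU6Hr1G032070 was called in Karl alone, and 33 genes were called in neither. These joint counts were not made over all genes tested, of which at most the 0.578% lower in Karl can be lower in both lines. All counts in this comparison rest on the values and libraries that chose the genes, so the choice itself raises them above the shares of all genes, and nothing is read from them. The count in Karl was 0 when either Karl 21 d replicate A or C was left out, 6 and 8 without Karl 14 d replicates A and C, 11 when 10_11 lost either 14 d library, and 33 without 10_11 21 d replicate B, and that in 10_11 was 27 and 37 without 10_11 14 d replicates A and B. Calls over all genes tested, in both directions, moved with the same libraries. In Karl they went from 113 to 4 and 7 without Karl 21 d replicates A and C. They were 24 and 30 without Karl 14 d replicates A and C. Without 10_11 14 d replicates A and B they were 57 and 60, and without 10_11 21 d replicate B 270. In 10_11 they went from 1809 to 475 and 751 without its 14 d replicates A and B.

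HORVU2Hr1G038940 had the highest score and the highest normalized count of the set at 14 d. In Karl it stood at 1466, 11169.8 and 2546 at 7 d, at 8453, 8331 and 3838 at 14 d and at 498.0, 709.3 and 1473 at 21 d. The Karl groups of 14 d and 21 d did not overlap, while those of 7 d and 21 d overlapped, with 1466 in 1 library of 7 d and 1473 in 1 of 21 d. In 10_11 it had 3409, 3967 and 14360 at 7 d, 5034 and 8024 at 14 d, and 489.5, 396.3 and 579.5 at 21 d, so every 21 d library lay under every earlier one. The change from 14 to 21 d was -2.94 in Karl and -3.73 in 10_11, and that from 7 to 14 d 0.44 and -0.15. The 100 genes together made up 1.84% ± 0.38 of all counts in Karl at 14 d and 0.635% ± 0.0897 at 21 d (SD, n = 3), and without this gene they held 1.46% in Karl 14 d replicate A in place of 2.23%.

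Some of the largest late drops did not start from a flat line. HORVU5Hr1G053950 had 241.9, 396.7 and 331.7 in Karl at 7 d, 218.1, 127.1 and 139.3 at 14 d, and 18.7, 35.5 and 19.4 at 21 d. Its 3 age groups in Karl did not overlap, and its changes were -0.98 and then -2.49. In 10_11 it had 258.1, 353.5 and 433.1 at 7 d, 222.1 and 72.6 at 14 d, and 32.2, 8.26 and 21.8 at 21 d, with changes of -1.21 and -2.56, again without overlap. Both lines thus showed a smaller early and a larger late change in this gene.

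HORVU2Hr1G119090 was the extreme of that kind. Its normalized counts in Karl were 722.2, 696.4 and 1023 at 7 d, 175.6, 42.0 and 47.8 at 14 d, and 1.56, 5.33 and 3.46 at 21 d. In 10_11 they were 853.6, 617.5 and 563.5 at 7 d, 169.8 and 42.9 at 14 d, and 4.44, 0 and 0 at 21 d, where 4 counts in 1 library are all that was seen. Its change from 7 to 14 d was -3.13 in Karl and -2.62 in 10_11, and from 14 to 21 d -3.47 and -4.10, the largest late drop of the 100 genes in each line. Its score of 0.34 placed it at rank 92, because the early change is subtracted. A change of 1 or more in size in the first interval in at least 1 line was present in 8 of the 100 genes, all of them lower at 14 d than at 7 d in that line. Such a change, in either direction, was present in 1127 of the 7152 (15.8%), and the rule subtracts it. In contrast, 72 genes stayed within 0.5 in both lines, as did 3644 of the 7152. Of the 8, HORVU6Hr1G000070, HORVU3Hr1G015850, HORVU7Hr1G033620, HORVU5Hr1G097730 and HORVU4Hr1G011740 had 1 library of 7 d at least 2 times both others in that line. HORVU5Hr1G053950, HORVU6Hr1G000090 and HORVU2Hr1G119090 did not.

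The genes at ranks 8 and 12 were closer to the pattern the rule describes. HORVU3Hr1G059220 in Karl had means of 64.3 ± 42.0 at 7 d, 64.3 ± 27.3 after 14 d and 23.8 ± 6.42 after 21 d (SD, n = 3). In 10_11 it had 64.0 ± 22.2 at 7 d (SD, n = 3), 56.2 ± 0.157 at 14 d (SD, n = 2) and 22.1 ± 9.97 at 21 d (SD, n = 3). HORVU6Hr1G083660 had 46.5, 42.0 and 34.2 in Karl at 14 d against 14.8, 16.9 and 15.9 at 21 d, and 50.9 and 27.1 in 10_11 at 14 d against 15.5, 16.5 and 14.3 at 21 d. The 21 d values of this gene lay within 14.3 to 16.9 in all 6 libraries, while its 7 d libraries ranged from 16.8 to 78.9. Of the remaining top 12, HORVU7Hr1G098670, HORVU1Hr1G004330, HORVU1Hr1G075830, HORVU1Hr1G026650, HORVU1Hr1G007810 and HORVU3Hr1G019510, had 14 d means between 20.2 and 87.5 and changes from 14 to 21 d of -1.36 to -2.11 in the 2 lines.

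HORVU5Hr1G087250, at rank 2, rests on 1 high library of 14 d in each line. It had 8.50, 189.5 and 0 in Karl at 14 d, so that replicate B made the group mean, and 0, 10.2 and 1.38 at 21 d. The 2 Karl groups overlapped. In 10_11 it had 41.3 in replicate A and 6.60 in replicate B at 14 d against 0, 4.13 and 4.51 at 21 d. When each of the 17 libraries was left out in turn, the rule kept it 15 times. Because the rule works on group means, it does not ask that replicates agree, and this gene was called in neither line.

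**Figure D3:**
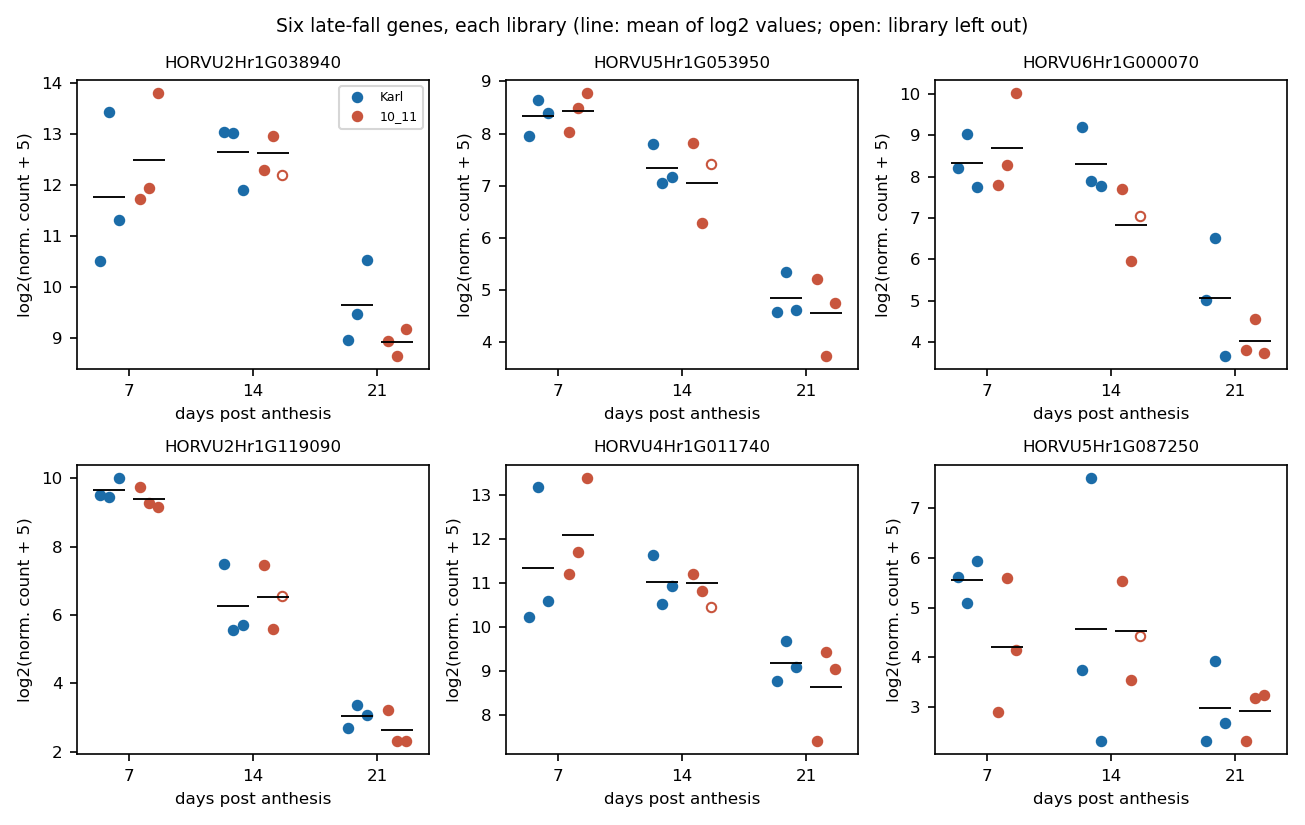
Level of 6 late-fall genes in each library (points), as log2(normalized count + 5), by days post anthesis, Karl in blue and 10_11 in red, with the mean of the log2 values (line); the open point is the library labelled 10_11 14 d replicate C. HORVU2Hr1G119090 is lower at each later day. The Karl mean of HORVU5Hr1G087250 at 14 d rests on 1 high library, with 189.5 normalized counts against 8.50 and 0.

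After HORVU2Hr1G038940, the highest normalized counts at 14 d were those of HORVU4Hr1G011740, HORVU5Hr1G120390, HORVU6Hr1G008640 and HORVU7Hr1G116960. In HORVU4Hr1G011740 the Karl values were 1196, 9301 and 1534 at 7 d, 3178, 1452 and 1943 at 14 d, and 430.1, 816.9 and 537.5 at 21 d. Its 10_11 values were 2352, 3304 and 10676 at 7 d, 2336 and 1792 at 14 d, and 164.3, 682.2 and 518.5 at 21 d. The 21 d values of both lines lay below all earlier ones. HORVU5Hr1G120390 was highest at 14 d in both lines, with means of 826.7 ± 212.4, 1193 ± 326.7 and 601.1 ± 215.2 over the 3 days in Karl (SD, n = 3) and changes of 0.53 and -0.98. In 10_11 its changes were 0.33 and -1.26.

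In HORVU4Hr1G011740, as in HORVU2Hr1G038940 and HORVU7Hr1G116960, the same 7 d libraries stood above the others, Karl replicate 2 and 10_11 replicate 3. HORVU7Hr1G116960 had 1190.0 in Karl 7 d replicate 2 against 186.4 and 262.0 in the others, and 1253 in 10_11 7 d replicate 3 against 364.8 and 398.3. Karl 7 d replicate 2 was at least 2 times both of its fellow libraries in 14 of the 100 genes (4.89% of the 7152), and 10_11 7 d replicate 3 in 9 (4.95%). For 6 of the 100 genes both held (1.75% of the 7152), the other 3 of them being HORVU3Hr1G084830, HORVU4Hr1G085250 and HORVU5Hr1G011780. 10_11 7 d replicate 3 was also the shallowest library, with 353982 counts. The part of these libraries in the 7 d values was not tested; without Karl 7 d replicate 2 the rule kept 84 of the 100 genes, and without 10_11 7 d replicate 3 it kept 83.

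The late drop was larger in 10_11 than in Karl for 75 of the 100 genes. Over all 7152 genes, the later change was lower in 10_11 for 44.7%, which includes genes that rose. Of the 7152, 47.9% dropped from 14 to 21 d in Karl and 45.1% in 10_11. The median difference between the lines' changes from 14 to 21 d was -0.22 for the set (10_11 minus Karl) and 0.07 for the 7152. The genes with the largest such differences were HORVU6Hr1G008640, HORVU5Hr1G097730, HORVU5Hr1G087250, HORVU5Hr1G093660 and HORVU6Hr1G053730. HORVU6Hr1G008640 had 950.7, 773.6 and 932.3 in Karl at 14 d and 429.3, 611.5 and 365.2 at 21 d, a change of -0.91. In 10_11 it had 1643 and 823.3 at 14 d and 259.7, 233.2 and 333.4 at 21 d, a change of -2.14. At 21 d the lines did not overlap for this gene, and its difference between the lines at that day did not pass the test (edgeR log2 fold change -0.79, SE 0.38, adjusted p = 0.34). HORVU5Hr1G097730 changed by -1.84 in Karl and -3.03 in 10_11, HORVU5Hr1G093660 by -0.87 and -1.86, and HORVU6Hr1G053730 by -1.39 and -2.30. In HORVU5Hr1G093660 the Karl groups overlapped, with 62.3, 205.0 and 46.2 at 14 d and 37.5, 26.7 and 100.3 at 21 d. Those of HORVU5Hr1G097730 and HORVU6Hr1G053730 did not. The opposite order was seen in HORVU5Hr1G087250, with -3.00 in Karl and -1.88 in 10_11. Its 14 d mean rests on 1 high library in each line. Since both changes entered the choice of genes, the differences between them were not tested here.

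The rule used the group means of each line but no difference between lines, and the levels of the lines on the same day were tested across all genes. These differences are not independent of the choice, since that at 21 d is the sum of that at 14 d and the difference between the lines' later changes. The medians and counts over the set are therefore descriptions. At 7 d none of the 100 genes passed the test between 10_11 and Karl (edgeR adjusted p of 0.899 or more; 5 at an unadjusted p under 0.05, as were 471 of all 10382; DESeq2 called 0), where 0.183% of all tested genes were higher and 0.231% lower in 10_11. At 14 d again none passed (edgeR adjusted p of 0.118 or more; 10 at an unadjusted p under 0.05, as were 1690 of all 10382; DESeq2 called 0), where 0.973% were higher and 2.02% lower. The median log2 fold change of the set, 10_11 over Karl, was 0.05 at 7 d and 0.04 at 14 d. At 21 d it was -0.34, 73 of the 100 genes were lower in 10_11, and 1 passed the test, where 0.491% of all genes were lower and 0.925% higher. An unadjusted p under 0.05 at 21 d was found for 16 of the 100 genes and for 1572 of all 10382. On the log2(mean + 5) scale the median difference at 21 d was -0.25 for the set and 0.04 for the 7152 genes, of which 45.8% were lower in 10_11. It was -0.15 without Karl 21 d replicate B, with 63 genes lower in 10_11, and -0.22 to -0.33 without any other 21 d library.

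HORVU6Hr1G001480 was the gene called lower in 10_11 at 21 d. It had 10.9, 12.9 and 11.8 normalized counts in Karl and 3.33, 2.06 and 6.02 in 10_11, without overlap (log2 fold change -1.57, SE 0.37, edgeR adjusted p = 0.0393). At 14 d it had 25.5, 21.6 and 21.5 in Karl against 21.2 and 17.8 in 10_11. The identifier places it on chromosome 6. Its log2 fold change at 21 d was -2.14 to -1.29 over 22 alternatives. The adjusted p there was 0.0226 to 0.156, and the call held in 9 of the 22. It held without Karl 7 d replicate 1 or 2, any 7 d replicate of 10_11 or 10_11 21 d replicate C, and it was lost without each of the other 11 libraries, by DESeq2 and with the replicate block (adjusted p = 0.0993).

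Averaged over the 3 days, 4 of the 100 genes were lower in 10_11 and none higher, against 1.13% of all tested genes lower and 1.16% higher, and 18 of the 100 and 1370 of all 10382 had an unadjusted p under 0.05. They were HORVU5Hr1G056040, HORVU2Hr1G099450, HORVU7Hr1G033620 and HORVU7Hr1G106540, and each was lower in 10_11 at every day in the mean. HORVU5Hr1G056040 had 48.7, 128.5 and 50.9 in Karl and 27.3, 26.2 and 25.2 in 10_11 at 7 d, 112.2, 68.0 and 38.2 against 7.68 and 31.7 at 14 d, and 7.03, 33.3 and 12.4 against 8.88, 1.03 and 6.77 at 21 d. The lines overlapped only at 21 d (average log2 fold change -1.73, SE 0.39, edgeR adjusted p = 0.0216). Its call held in 18 of 22 alternatives, with an adjusted p of 0.00175 to 0.0837, and was lost without Karl 21 d replicate B (0.0804), 10_11 7 d replicate 2 (0.0566) or 10_11 14 d replicate A (0.0837), and with all 18 libraries (0.0579).

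HORVU2Hr1G099450 had 805.7, 336.5 and 523.1 in Karl at 14 d against 198.7 and 149.9 in 10_11, and 142.1, 412.4 and 162.6 against 23.3, 130.0 and 58.7 at 21 d. The lines overlapped at 7 d and at no later day (average log2 fold change -1.25, SE 0.31, edgeR adjusted p = 0.0387, 0.00391 to 0.161 over 22 alternatives). HORVU7Hr1G033620 had 155.8, 69.1 and 41.4 in Karl at 14 d against 12.4 and 29.7 in 10_11 (average log2 fold change -1.86, SE 0.47, edgeR adjusted p = 0.0457, 0.0208 to 0.191 over the alternatives). For this gene the lines overlapped at 7 d and at 21 d. HORVU7Hr1G106540 had 36.9, 38.3 and 49.0 in Karl at 7 d against 19.8, 20.1 and 21.0 in 10_11 (average log2 fold change -1.08, SE 0.28, edgeR adjusted p = 0.0469, 0.0183 to 0.165 over the alternatives). Here the lines overlapped at 14 d and at no other day. These 3 calls held in 8, 12 and 6 of the 22 alternatives. Among single libraries left out, the first held without Karl 7 d replicate 2, Karl 14 d replicate B, Karl 21 d replicate A or C or 10_11 21 d replicate B. The second held without Karl 7 d replicate 1, Karl 14 d replicate B or C, Karl 21 d replicate A or C, 10_11 7 d replicate 2 or 10_11 21 d replicate A or B. The third held without Karl 14 d replicate B or Karl 21 d replicate A or C. None of the 4 average differences was called with all 18 libraries, where the library labelled 10_11 14 d replicate C counts as 10_11.

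**Figure D4:**
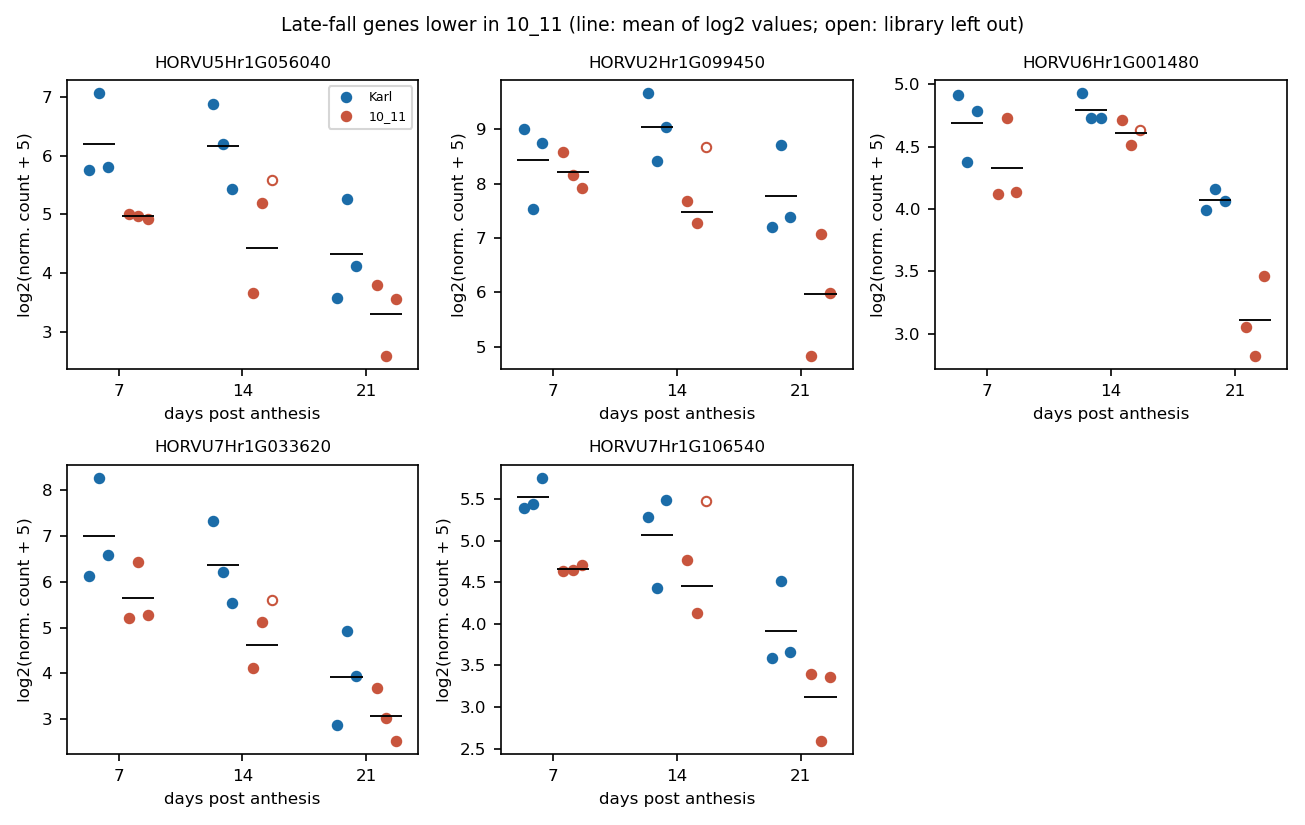
Level of the 5 late-fall genes called lower in 10_11, at 21 d (HORVU6Hr1G001480) or on average over the days (the other 4), in each library (points), as log2(normalized count + 5), by days post anthesis, Karl in blue and 10_11 in red, with the mean of the log2 values (line). The open point, the library labelled 10_11 14 d replicate C, lies above both other 14 d libraries of 10_11 in all panels but that of HORVU6Hr1G001480, for instance at 43.0 normalized counts in HORVU5Hr1G056040 against 7.68 and 31.7.

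The library labelled 10_11 14 d replicate C took no part in the choice of genes. If its age label holds, it is a further measurement of the 14 d level. Its line is in doubt and its age was not checked. It lay above all 3 21 d libraries of 10_11 in 90 of the 100 genes (27.4% of the 7152) and above all 3 of Karl in 84 (29.8%), and above all 6 in 79 (18.8%). The median difference of the 21 d mean from this library was -1.15 for 10_11 and -0.82 for Karl, against 0.07 and 0.04 over the 7152 genes. The 21 d means were themselves used in the choice, so only the 14 d side of this difference is independent of it. HORVU2Hr1G038940 had 4691 normalized counts in this library and HORVU5Hr1G053950 166.8, both inside the range of the other 14 d libraries. HORVU7Hr1G116960, at 266.4, was among the 21 genes for which it did not exceed all 21 d libraries. It lay below every other 14 d library in 27 of the 100 genes (12.8% of the 7152) and above every one in 11 (13.4%).

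**Figure D5:**
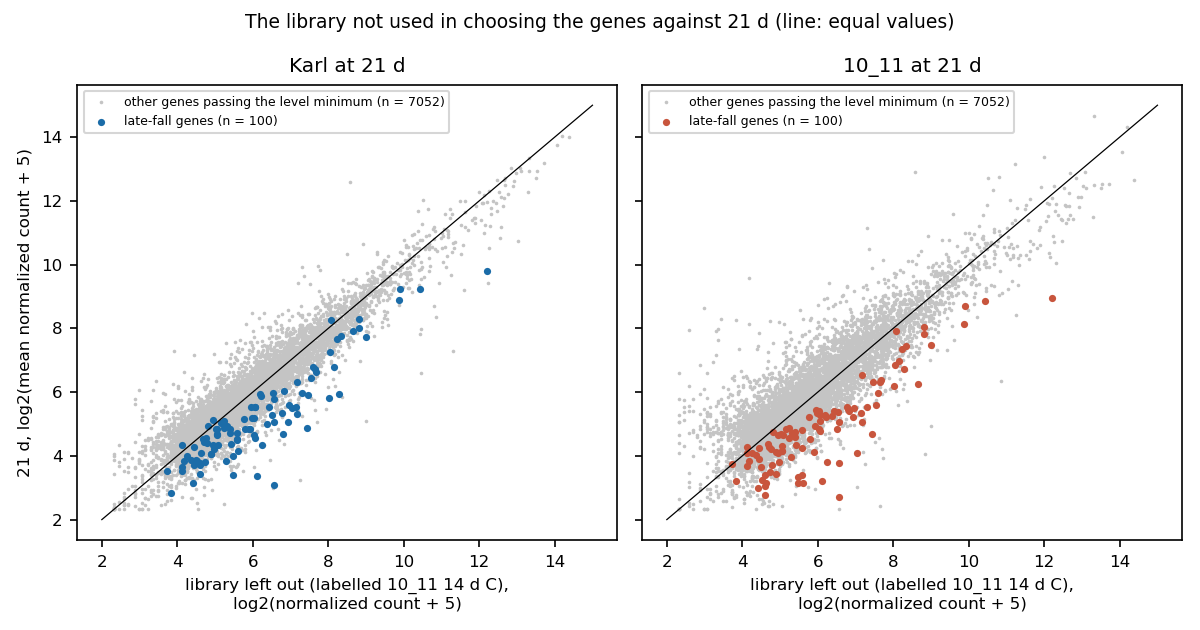
Level of each gene in the library labelled 10_11 14 d replicate C (horizontal axis) and its mean at 21 d (vertical axis), both as log2(normalized count + 5), for Karl and 10_11; grey points are the other genes that reached the level minimum, coloured points the 100 late-fall genes and the line equal values. The late-fall genes lie mostly under the line, with a median difference of -0.82 for Karl and -1.15 for 10_11.

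By their identifiers the 100 genes lie on all 7 chromosomes, with 12 on chromosome 1, 18 on 2, 17 on 3, 13 on 4, 16 on 5, 12 on 6 and 12 on 7. The shares of the 7152 genes on these chromosomes were 13.4%, 14.8%, 14.7%, 12.98%, 16.05%, 11.5% and 14.2%, and 172 of them are unplaced. In 4 pairs the members lay within 10 listed genes of each other. HORVU6Hr1G000070 and HORVU6Hr1G000090 are consecutive in the table. The first had 585.8, 234.3 and 214.2 in Karl at 14 d and 27.3, 85.8 and 7.61 at 21 d, and the second 722.9, 235.4 and 308.1 and then 94.5, 177.3 and 47.7. In both genes replicate A was the highest Karl library at 14 d and replicate B at 21 d, and their log2 levels had a Pearson r of 0.965 over the 17 libraries, which share the age groups. In 10_11 their changes from 7 to 14 d were -1.94 and -1.35, and in Karl 0.02 and -0.29. For the first gene the 10_11 values were 215.9, 304.1 and 1030 at 7 d and 204.1 and 57.4 at 14 d. Its 7 d mean thus leans on replicate 3, the shallowest library. The second had 359.8, 480.1 and 773.7 at 7 d and 287.9 and 126.8 at 14 d, again highest in replicate 3. Whether the lines differ in this early change was not tested.

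HORVU5Hr1G055950 lies 2 listed genes from HORVU5Hr1G056040, and the r of this pair was 0.909. It had 115.6, 92.8 and 30.3 in Karl and 14.6 and 43.6 in 10_11 at 14 d, and its average difference between the lines did not pass the test (log2 fold change -1.26, SE 0.40, edgeR adjusted p = 0.14). The other pairs were HORVU3Hr1G064600 with HORVU3Hr1G064730, with an r of 0.67, and HORVU5Hr1G100700 with HORVU5Hr1G100910, with an r of 0.459. Reads of near-identical copies may be split or lost in counting, and whether the genes of a pair are copies is not known from the table. These correlations describe libraries that share line, age and depth and carry no test.

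At the lower edge the set grades into the rest. HORVU3Hr1G069260, HORVU4Hr1G072220 and HORVU5Hr1G107380, at ranks 98 to 100, had scores of 0.319, 0.317 and 0.316, and HORVU6Hr1G053000, HORVU3Hr1G011560 and HORVU4Hr1G078500, just outside, 0.311, 0.309 and 0.307. HORVU5Hr1G107380 had 48.2, 30.9 and 46.2 in Karl at 14 d and 20.3, 36.4 and 19.4 at 21 d, with overlap. HORVU3Hr1G011560, outside, changed by -0.96 in Karl and -1.62 in 10_11 in the later interval, more than HORVU5Hr1G107380 with -0.62 and -0.65, and also by -0.62 and -0.65 in the earlier one. When each of the 17 libraries was left out in turn and the rule applied again, 71 to 92 of the 100 genes were chosen again. In all 17 repeats 19 of them were, including 6 of the 12 with the highest scores, and HORVU5Hr1G107380 was chosen in 4.

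The set is not made up of rare transcripts only. The mean normalized count at 14 d had a median of 54.3 over the 100 genes and 41.4 over the 7152, and 48 of the 100 and 4044 of the 7152 were at or below 50. At 21 d the raw counts summed over the libraries of a line had a median of 127 in Karl and 67.5 in 10_11 for the 100 genes. The sum was under 20 for 2 genes in Karl and for 14 in 10_11, with lowest values of 11 and 4, so the size of the drop is least certain for those. The median SD of log2(normalized count + 5) between replicates was 0.34 in Karl and 0.44 in 10_11 at 21 d, against 0.27 and 0.23 at 14 d.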

How the data were processed

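The deposited file lists 13626 genes. Its raw columns are counts, per the file headers, and its normalized columns are the authors' signal, in which raw over normalized is a constant in each library. The submitters' processing notes name bcl2fastq, cutadapt, STAR 2.4.2a, HTSeq and DESeq2. Genome build, annotation and the use of molecular identifiers are not stated in the labels. A further 18 columns of regularized values were not used.

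The genes were chosen on normalized counts from 17 libraries. Counts of the same libraries were fitted with edgeR 4.0.16 in R 4.3.3 (filterByExpr by group, 10382 genes, TMM, quasi-likelihood test, two-sided, 11 residual degrees of freedom, Benjamini-Hochberg adjusted p under 0.05). SE is the log2 fold change over the square root of F. Alternatives were DESeq2 1.42.0, its size factors, no filter, all 18 libraries, a block for replicate, and each library left out in turn. The fit was tested on simulated data.

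The members and lists were chosen with earlier results of these data known. Named are the 12 highest scores, the 5 largest drops per line, the 5 highest levels, genes called between lines, those at the threshold, the 5 most different between lines, and neighbours. Genes named for high 7 d libraries or as the single call in Karl were chosen after their values were seen. No list by gene function could be used without names.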

Additional observations from a re-analysis of the deposited data

How the results depend on the processing

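The rule chose 79 to 91 of the same genes under another scale, another pseudocount, no level minimum or all 18 libraries, and 71 to 92 without single libraries. With a level minimum of 50 it chose 67. These are all of the 100 that reach that minimum, so this number was set by the minimum itself. With a pseudocount of 20 the median change from 14 to 21 d was -0.63 in Karl and -0.785 in 10_11, and with 1 it was -1.285 in 10_11; without single libraries the latter was -1.22 to -1.06. Of the 100 genes, those called between the lines at 14 d were 0 to 1 without single libraries, and at 21 d 0 to 3, 2 by DESeq2 (HORVU6Hr1G001480 not among them) and 0 with the replicate block; 3 came without 10_11 21 d replicate B and 0 without any of 9 others. On average over days they were 0 to 7, 0 with all 18 libraries and 2 with the block: 0 without 10_11 14 d replicate A, 7 without 10_11 21 d replicate B, 4 to 6 without Karl 21 d replicate A or C or Karl 14 d replicate B, and 1 or 2 without any of the other 12. From 14 to 21 d they were 0 to 33 in Karl in place of 17, 32 by DESeq2 and 9 with the block. In 10_11 they were 27 to 67 in place of 66, and 49 with the block.

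Over all tested genes, 43 were called between the lines at 7 d, 311 at 14 d, 147 at 21 d and 237 on average, and 6 at 7 d, 5 at 14 d and 129 on average with all 18 libraries. DESeq2 called 307 at 21 d and, in Karl from 14 to 21 d, 258 in place of 113. The block gave 203 at 14 d and 52 in Karl. Without single libraries, 4 to 270 of all tested genes were called from 14 to 21 d in Karl and 475 to 1910 in 10_11. Deviations of libraries of the 2 lines with the same replicate label correlated at 0.108, -0.0833 and -0.11 at 7 d. At 14 d the values were 0.225 and 0.23, and at 21 d -0.149, 0.301 and 0.324. The main fit does not take the labels to pair samples, and whether same-lettered libraries shared a block is not stated in the labels. Low counts at 21 d and the shallow 7 d libraries limit the precision of single genes.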
